A study of Mus musculus with 3 samples.

Results

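The genes described here are 7 that are known from reactive gliosis, apart from Lcn2: Timp1, Serpina3n, A2m, Cd44, Nupr1, Cebpd and Cebpb. They were picked by name from 18545 measured genes, on values that Müller glia-like cells (cluster 0) had shown in these same libraries, so their differences within that cluster are given as a description, with no test. Cluster 0 held 4770 of the 15242 cells, and all 10 of 10 Müller glia markers, among them Rlbp1, Glul and Aqp4, were at least 2-fold higher in it than in the remaining cells. Single-cell RNA-seq was run on retinas of mice aged 8 weeks on the C57BL/6J background, with 3 groups and 1 pooled library per group. WT mice were wild type and, by their labels, either untreated or on vehicle, which is the base chow. The rd10 mice were dark-reared, and the text of the study does not state how the WT mice of this experiment were reared. Mice of the rd10-vehicle group carried the rd10 point mutation in Pde6b, the gene of a rod phosphodiesterase subunit, and received the base chow, and mice of the rd10-TMB group carried the same mutation and received chow with tamsulosin, metoprolol and bromocriptine. TMB thus joins an alpha-1 blocker (tamsulosin) and a beta-1 blocker (metoprolol), both acting on adrenergic signalling, with a dopamine agonist of the D2-like class (bromocriptine). The WT pool joined female and male mice, the rd10 pools were female, and the labels and the text of the study give different numbers of rd10 mice per pool. With 1 library per group there is no measure of the spread between animals, so no p-value is given. Genotype, treatment and any difference in rearing cannot be told apart from the library.

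Müller glia span the retina from its inner to its outer limit, keep ions, water and transmitters in balance, and answer to almost any injury of the retina. In that answer, called reactive gliosis, they make intermediate filaments such as Gfap, secrete acute-phase proteins and protease inhibitors, and remodel the matrix around them. Cytokines of the interleukin-6 family act through gp130 (Il6st) and Stat3, interleukin-1 and TNF act through NF-kB, and the transcription factors C/EBP-beta (Cebpb) and C/EBP-delta (Cebpd) are themselves early targets of such signals. Lcn2, which encodes a secreted iron-siderophore carrier, is a widely used marker of the reactive state and serves below as a partner in co-detection.

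The WT, rd10-vehicle and rd10-TMB libraries held 4478, 5952 and 4812 cells, with 18882951, 37002532 and 29192530 unique molecular identifiers (UMIs, each standing for 1 captured RNA molecule). Cluster 0 contributed 530, 2492 and 1748 of these cells, with medians of 6300, 8594 and 9455 UMIs per cell. Because the rd10 cells held more UMIs, shares of cells are given after thinning each cell to 2000 UMIs, which kept 506, 2427 and 1669 cells, and the unthinned share is given beside them. Levels are UMIs of the gene per 1000000 UMIs of the cluster and library (CPM), and all intervals are at 95% and cover counting error only, not the spread among cells or animals. The libraries shared 25 of 15217 distinct barcodes. Of the other cell types, rod markers summed to 821, 1128 and 1236 CPM in cluster 0 of WT, rd10-vehicle and rd10-TMB, and the 6 astrocyte markers to 140, 481 and 359 CPM, with Pax2 at 0 UMIs in all 3 libraries. Gfap, which reactive Müller glia also make, was 16.3, 339 and 223 CPM of that sum. Lens markers summed to 1.51, 33.2 and 21.2 CPM, the same order of libraries as the members, and cone markers to 98.8, 211 and 260 CPM, and their part in the differences of the members was not tested. Without the cells that held markers of other types, every member kept its direction in all 3 comparisons.

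Upstream flanks of Timp1 and Serpina3n are shown because these genes had the largest differences among the members. They were read from RefSeq (GRCm38.p6), which listed a start site for 5 of the 7 members, and were searched on both strands for 5 motifs: STAT (TTCNNNGAA), C/EBP (TTGCNNAA), AP-1 (TGANTCA), CRE (TGACGTCA) and a loose NF-kB core, in which GGG and CC stand 5 bases apart. Capitals mark matches to the NF-kB letters on either strand. The Timp1 flank is chrX:20869916-20870165 on the + strand, inside an intron of Syn1, which lies on the opposite strand, and ends at the base before the Timp1 start. The Serpina3n flank is chr12:104406458-104406645 on the + strand, shortened to 188 bases because another annotated transcript covers the 62 bases next to the RefSeq start.
Timp1: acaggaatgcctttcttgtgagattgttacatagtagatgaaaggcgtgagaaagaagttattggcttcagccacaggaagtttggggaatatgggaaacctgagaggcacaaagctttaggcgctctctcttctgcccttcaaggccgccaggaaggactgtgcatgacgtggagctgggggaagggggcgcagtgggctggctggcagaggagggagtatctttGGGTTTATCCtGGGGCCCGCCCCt
Serpina3n: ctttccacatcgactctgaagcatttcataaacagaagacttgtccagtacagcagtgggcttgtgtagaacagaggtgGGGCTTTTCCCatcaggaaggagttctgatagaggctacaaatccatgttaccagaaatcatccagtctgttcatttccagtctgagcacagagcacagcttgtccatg
The NF-kB letters were in 5 of the 5 flanks searched (Timp1, Serpina3n, Cd44, Nupr1 and Cebpb), but this loose motif was also in 45.8% of the 32851 promoters of the table. Nupr1 was the member with the STAT letters, TTCTGGGAA, 128 to 120 bases before its start, against 7.02% of all promoters. Its window overlaps an annotated exon of Nupr1 itself, so it is not plainly upstream of the gene. The C/EBP, AP-1 and CRE letters were in 0 of the 5 flanks and in 9.56%, 6.75% and 1.55% of all promoters. A match of letters is a description of the window and not a binding site.

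Timp1 (chrX:20870166-20874737, + strand) encodes a secreted inhibitor of matrix metalloproteinases. In cluster 0 its level was 2.11 CPM (0.848 to 4.34, 7 UMIs) for WT, 87.1 CPM (83.2 to 91.0, 1933 UMIs) for rd10-vehicle and 46.5 CPM (43.3 to 49.9, 780 UMIs) for rd10-TMB. WT was thus near the limit of detection, and none of the 3 counting intervals touched another. The log2 ratio of rd10-vehicle to WT was 5.18 (4.32 to 6.68), which is 36.2-fold, and it moved to 5.86 when each cell was given equal weight. Since Timp1 is X-linked and the WT pool held both sexes, the ratio was also taken against WT cells that held Xist but no Y-linked UMI, where it was 5.14. A Timp1 UMI was seen in 0.566% of WT, 21.2% of rd10-vehicle and 13.4% of rd10-TMB cells, and in 0.198%, 9.23% and 4.67% after thinning.

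Serpina3n (chr12:104406646-104414334, + strand) encodes a secreted inhibitor of serine proteases and is among the best-known markers of reactive astrocytes. Its level was 18.7 CPM (14.3 to 23.9) for WT, 325 CPM (318 to 333) for rd10-vehicle and 184 CPM (177 to 190) for rd10-TMB. Thinned shares of cells with a UMI were 1.38%, 28.1% and 14.6% in the same order, and unthinned shares 2.64%, 48.6% and 27.8%. Of the 62 WT UMIs, 29 came from 1 cell, so the WT level rested on few cells. The log2 ratio of rd10-vehicle to WT was 4.10 (3.76 to 4.51), and it was 5.26 without the 5% of cells with the most UMIs, 4.90 without cells carrying markers of other types and 4.72 against the WT cells that held Xist but no Y-linked UMI. The corresponding ratio of rd10-TMB to WT, 3.27 (2.94 to 3.68), went to 4.12, 4.04 and 3.90 under the same 3 choices.

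A2m (chr6:121636165-121679238, + strand) encodes alpha-2-macroglobulin, a broad protease inhibitor of the acute-phase response that is cleared through the receptor Lrp1. It was at 14.8 CPM (10.9 to 19.5) for WT, 195 CPM (189 to 201) for rd10-vehicle and 144 CPM (138 to 150) for rd10-TMB. A UMI was found in 3.21%, 39.2% and 28.7% of cells, or in 1.58%, 18.7% and 13.5% after thinning. The 3 secreted inhibitors thus had in common that fewer than 4% of WT cells held a UMI of each, against at least 21% of rd10-vehicle cells. For A2m the log2 ratio of rd10-vehicle to WT was 3.70 (3.32 to 4.16), or 12.96-fold.

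Cd44 (chr2:102811141-102901669, - strand) encodes the surface receptor for hyaluronan, which sits on the outer processes of Müller glia. Its level was 77.4 CPM (68.2 to 87.5) for WT, 209 CPM (203 to 215) for rd10-vehicle and 150 CPM (145 to 156) for rd10-TMB. Unlike the inhibitors, Cd44 was already found in 34.7% of WT cells, against 71.4% in rd10-vehicle and 62.7% in rd10-TMB (15.02%, 30.0% and 24.2% thinned). The log2 ratio of rd10-vehicle to WT was 1.42 (1.249 to 1.62), 2.69-fold.

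Nupr1 (chr7:126623246-126625470, - strand) encodes a small nuclear protein made under cell stress. It was at 105 CPM (94.4 to 117) for WT, 729 CPM (718 to 741) for rd10-vehicle and 576 CPM (565 to 588) for rd10-TMB. Nupr1 UMIs were in 31.7% of WT cells and in 86.3% and 81.4% of the rd10-vehicle and rd10-TMB cells (16.2%, 55.6% and 50.3% thinned). The gene was therefore detected in most rd10 cells of either library, and rd10-vehicle exceeded WT by a log2 ratio of 2.79 (2.64 to 2.95), 6.92-fold. The study itself named Nupr1 and Cd44 on these libraries, so their direction is no independent evidence.

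Cebpd (chr16:15887286-15889545, + strand) and Cebpb (chr2:167688915-167690432, + strand) encode the C/EBP-delta and C/EBP-beta transcription factors, which bind like sequences as dimers. Cebpd was at 1404 CPM (1364 to 1445) for WT, 3359 CPM (3335 to 3383) for rd10-vehicle and 2917 CPM (2891 to 2943) for rd10-TMB. Its share of cells was 80.4% for WT, 97.3% for rd10-vehicle and 93.6% for rd10-TMB (64.4%, 92.7% and 86.6% thinned), and its rd10-vehicle to WT log2 ratio was 1.26 (1.22 to 1.301), 2.39-fold. Cebpb was at 211 CPM (196 to 227) for WT, 831 CPM (819 to 843) for rd10-vehicle and 771 CPM (757 to 784) for rd10-TMB. Its share of cells was 37.5%, 83.3% and 80.7% (19.96%, 62.0% and 57.5% thinned), with a rd10-vehicle to WT log2 ratio of 1.97 (1.87 to 2.09), 3.93-fold. Both factors were thus part of the WT profile, Cebpd in most cells, and were higher in both rd10 libraries.

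**Figure D1:**
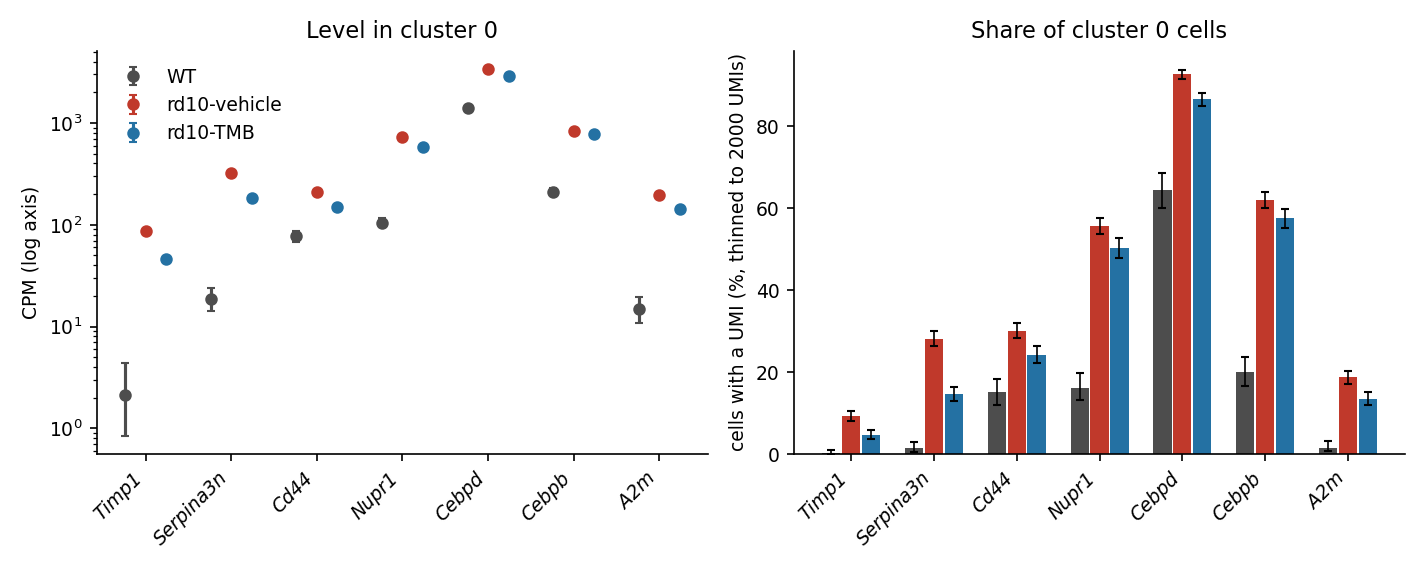
Level of each gene in cluster 0 (left, CPM on a log axis, with exact Poisson intervals) and percentage of cluster 0 cells with a UMI after thinning to 2000 UMIs (right, with Clopper-Pearson intervals), in WT, rd10-vehicle and rd10-TMB, 1 library each. In each gene rd10-vehicle is highest, rd10-TMB is next and WT is lowest, from 2.11 against 87.1 CPM for Timp1 to 1404 against 3359 CPM for Cebpd.

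In the rd10-vehicle library 7 of the 7 members were at least 2-fold above WT, where 4.68% of the 13172 genes with at least 50 UMIs were. In rd10-TMB 6 of the 7 were, against 3.92% of all genes. Since that contrast chose the members, nothing is read from these counts. Against WT, the median log2 ratio over the members was 2.79 (rd10-vehicle) or 2.45 (rd10-TMB), beside -0.06 and -0.08 over all genes. The member that missed the 2-fold limit in rd10-TMB was Cd44, at a log2 ratio of 0.95 (0.77 to 1.15), and it crossed the limit at 1.01 with median-of-ratios size factors. Cebpd sat just inside, at 1.05 (1.01 to 1.10), and was at 0.96 against the WT cells that held Xist but no Y-linked UMI.

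Each member was lower with TMB chow than with base chow among the rd10 libraries, by amounts that differed among the members. The inhibitors Timp1 and Serpina3n differed most, with log2 ratios of -0.90 (-1.03 to -0.78) and -0.82 (-0.89 to -0.76), that is 1.87-fold and 1.77-fold lower. Cd44 followed at -0.47 (-0.54 to -0.40), A2m at -0.44 (-0.51 to -0.37) and Nupr1 at -0.34 (-0.38 to -0.30). Cebpd and Cebpb differed least, at -0.20 (-0.22 to -0.19) and -0.11 (-0.14 to -0.08). Neighbours in this order whose intervals overlapped were Timp1 and Serpina3n, Cd44 and A2m, and A2m and Nupr1. Of the 7 members, 5 were at 0.8 or less of their rd10-vehicle level, against 8.04% of all genes, and the medians were -0.44 and -0.02. This contrast may have entered the choice of the members, so the count is again a description. Nupr1 lay close to the limit and was at -0.32, just outside it, with median-of-ratios size factors.

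In thinned cells such a ratio is made up of the share of cells with a UMI and the number of UMIs in each such cell, and these were separated after the first values had been seen. For Timp1 the thinned rd10-TMB to rd10-vehicle log2 ratio of -1.10 divided into -0.98 for the share and -0.12 for the UMIs per positive cell. For Serpina3n, -1.07 divided into -0.94 and -0.13, and for A2m, -0.67 into -0.47 and -0.20. Cd44 divided into -0.31 and -0.11 of -0.42, and Cebpb into -0.11 and -0.07 of -0.18. The share thus made the larger part for the 3 inhibitors, Cd44 and Cebpb. For Nupr1 (-0.25 of -0.40, against -0.14 for the share) and Cebpd (-0.12 of -0.22, against -0.10) the UMIs per positive cell made the larger part. Low counts tie the share and the number per positive cell together, so the 2 parts are not separate readouts.

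The members also differed in their spread over cells. The tenth of rd10-vehicle cluster 0 cells with the most UMIs of the gene held 84.0% of all Timp1 UMIs, 68.2% of those of A2m and 63.7% of those of Serpina3n. It held 49.0% for Nupr1, 39.4% for Cebpb, 37.2% for Cd44 and 29.9% for Cebpd. In rd10-TMB the same shares were 92.4%, 79.8% and 81.4% for the 3 inhibitors and 51.2%, 42.4%, 41.2% and 32.8% for the others. Inhibitor transcripts were thus concentrated in part of the cells and Cebpd transcripts were spread widely. These shares were not thinned, and a gene with fewer UMIs reaches a higher share by counting alone, also between libraries. Serpina3n, with 7215 UMIs in rd10-vehicle, still had a higher share than Cd44, with 4631. A single rd10-vehicle cell held up to 61 Timp1, 97 Serpina3n and 94 A2m UMIs.

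Co-detection was counted per cell within each library, in cells thinned to 2000 UMIs, and it was set against the number of cells with both genes that independent detection would give. Timp1 and Serpina3n were found together in 123 rd10-vehicle cells where 62.9 were expected, an observed to expected ratio of 1.95. The ratio was 2.005 for Timp1 with A2m (84 cells, 41.9 expected) and 1.69 for Serpina3n with A2m (216 cells, 127.6 expected). Put differently, 18.04% of cells with Serpina3n also held Timp1, against 5.79% of cells without it. In rd10-TMB, where each inhibitor was rarer, the 3 ratios were 3.16 (36 cells, 11.4 expected), 2.66 (28 cells, 10.5 expected) and 2.71 (89 cells, 32.9 expected). By this ratio, which is capped for genes found in many cells, the 3 inhibitor pairs were the 3 highest of the 21 member pairs in both rd10 libraries. Their odds ratios were 3.58, 2.97 and 2.94 in rd10-vehicle and 5.70, 3.96 and 5.44 in rd10-TMB. By odds ratio they were again the 3 highest in rd10-TMB, whereas in rd10-vehicle Cebpd with Cebpb (3.56) and Timp1 with Nupr1 (2.96) ranked among them.

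The C/EBP genes did not follow that pattern with Timp1. Timp1 and Cebpb were seen together less often than independence gives in rd10-vehicle, at a ratio of 0.857 (119 cells, 138.8 expected), and at 1.003 in rd10-TMB. Without thinning all 21 member pairs of rd10-vehicle were above 1, so the direction of this pair turned. Timp1 with Cebpd was at 0.982 and 1.01. Pairs with Cebpd cannot rise far above 1, because 92.7% of the thinned rd10-vehicle cells held it, and the odds ratio of Cebpd with Cebpb was 3.56 there and 2.97 in rd10-TMB. Cd44 and Nupr1 had ratios of 1.37 and 1.39 with Timp1 in rd10-vehicle and 1.06 and 1.38 in rd10-TMB. Nupr1 was found in 55.6% of the thinned rd10-vehicle cells, which caps its ratio as well, and its odds ratio with Timp1 was 2.96, beside 1.71 for Cd44 with Timp1. Over all 21 pairs, 17 were above 1 in rd10-vehicle (0.857 to 2.005, median 1.10) and 19 in rd10-TMB (0.960 to 3.16, median 1.10). In WT 10 of the 14 pairs with an expectation of at least 1 cell were above 1, on few cells.

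**Figure D2:**
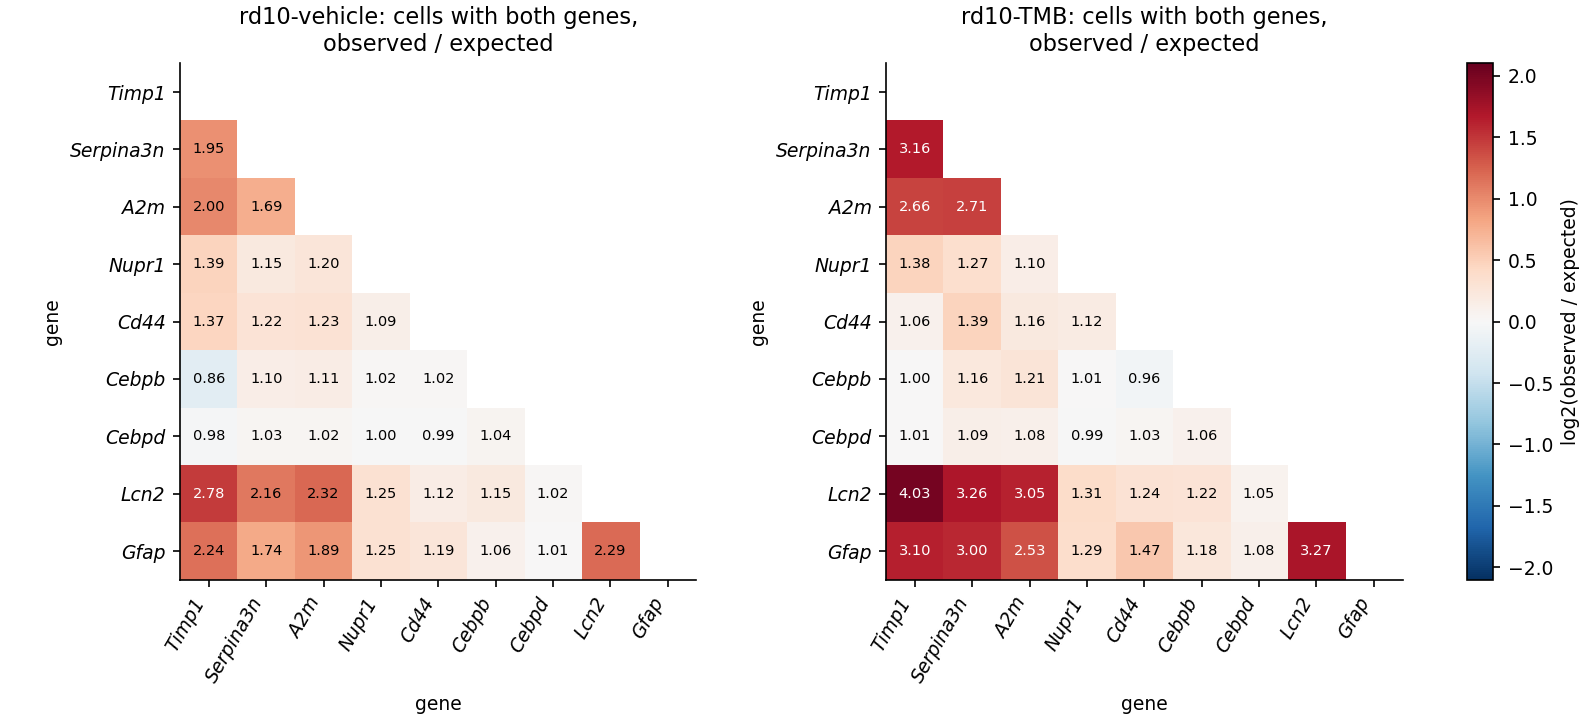
Cells with both genes over the number expected under independence, for each pair of the 7 genes and for each gene with Lcn2 and Gfap, in cluster 0 cells thinned to 2000 UMIs, of rd10-vehicle (left) and rd10-TMB (right). Colour is the log2 of the printed ratio, which is highest for Timp1 with Lcn2, at 2.78 and 4.03, and lowest for Timp1 with Cebpb, at 0.857, in rd10-vehicle and for Cd44 with Cebpb, at 0.960, in rd10-TMB.

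Lcn2 and Gfap, which are not members, were also found with the 3 inhibitors more often than independence gives. In rd10-vehicle the observed to expected ratio with Lcn2 was 2.78 for Timp1, 2.32 for A2m and 2.16 for Serpina3n, and it was 1.249 for Nupr1, 1.15 for Cebpb, 1.12 for Cd44 and 1.02 for Cebpd. In rd10-TMB Timp1 was again highest, at 4.03, with Serpina3n at 3.26 and A2m at 3.05. With Gfap the 3 inhibitors were at 2.24, 1.89 and 1.74 in rd10-vehicle (Timp1, A2m, Serpina3n) and at 3.10, 2.53 and 3.004 in rd10-TMB. With Müller glia markers that were neither rare nor in nearly every thinned cell, added after these values were seen, most inhibitor pairs of the rd10 libraries lay below 1. With the water channel gene Aqp4 the odds ratios were 0.46 for Timp1, 0.48 for Serpina3n and 0.40 for A2m in rd10-vehicle and 0.96, 0.56 and 0.43 in rd10-TMB, and with the potassium channel gene Kcnj10 they were 0.64, 0.89 and 0.74 and then 0.34, 0.50 and 0.53. In these 2 libraries, exceptions above 1 were Serpina3n with Sox9 in rd10-vehicle (1.09) and the 3 inhibitors with Crym in rd10-TMB (1.51 to 1.96). Cells with a UMI of all 3 inhibitors, counted without thinning, numbered 1 of 530 in WT, 321 of 2492 in rd10-vehicle (12.9%, 11.6 to 14.3) and 120 of 1748 in rd10-TMB (6.86%, 5.72 to 8.15). Of these, 1, 229 and 84 also held Lcn2. Their median depths were 18881, 11050 and 13468 UMIs, above those of the whole cluster, so depth moves with this unthinned count.

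The number of members found in a cell was wider than independent detection gives. After thinning, at least 3 of the 7 members were found in 9.68% of WT cells (7.25 to 12.6), 62.0% of rd10-vehicle cells (60.004 to 63.9) and 46.7% of rd10-TMB cells (44.3 to 49.2), where independence would give 5.94%, 65.8% and 49.5%. At least 5 were found in 12.8% of rd10-vehicle cells (11.5 to 14.2, 7.85% expected) and 6.83% of rd10-TMB cells (5.67 to 8.15, 2.78% expected). In WT this was 0 of 506 cells, and 0 counts allow a share of up to 0.593%. All 7 members were found in 10 rd10-vehicle and 3 rd10-TMB cells. At the other end, cells with 0 members made up 1.32% of rd10-vehicle and 3.12% of rd10-TMB, where 0.454% and 1.505% were expected. Both rd10 libraries thus had more cells with 5 or more members and more with 0 or 1 than independence gives, and fewer with 2 to 4.

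**Figure D3:**
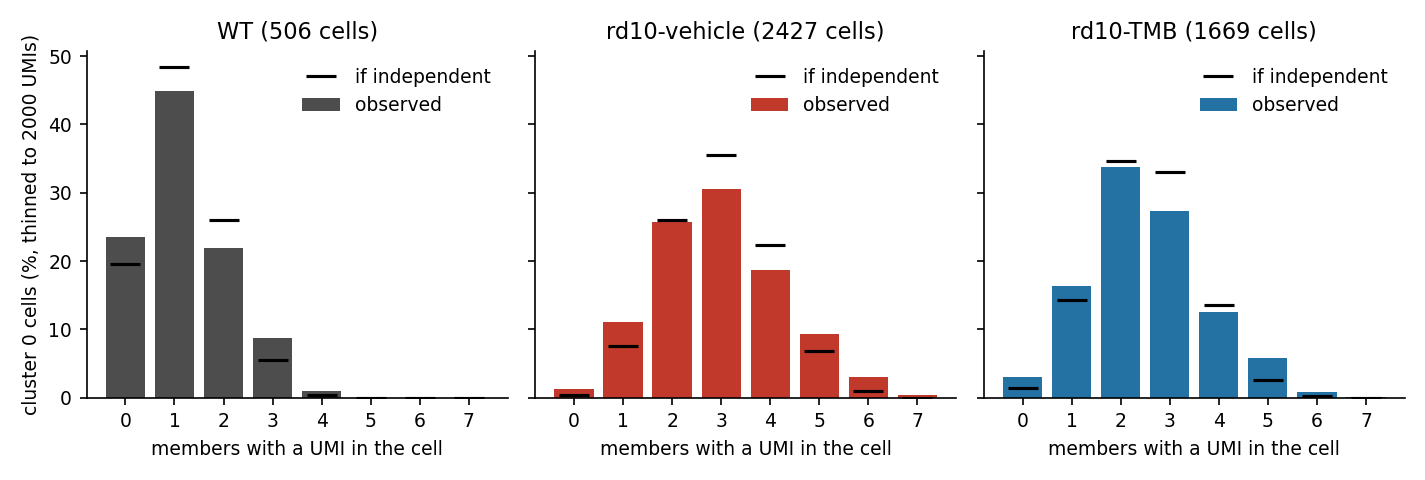
Percentage of cluster 0 cells (y axis) by the number of the 7 genes with a UMI in the cell (x axis), after thinning to 2000 UMIs, in the 3 libraries. Bars are the observed shares and black lines the shares under independent detection, with the bars above the lines at 0, 1 and 5 to 7 genes in both rd10 libraries.

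Among thinned cluster 0 cells 8 of WT, 406 of rd10-vehicle and 170 of rd10-TMB held an Lcn2 UMI, and splitting by Lcn2 was added after the co-detection had been seen. In rd10-vehicle, Timp1 was higher in cells with Lcn2 than in cells without it by a log2 ratio of 2.32 (2.01 to 2.62), A2m by 2.14 (1.93 to 2.35) and Serpina3n by 1.83 (1.67 to 1.99). The other members differed less, with 0.91 (0.80 to 1.02) for Nupr1, 0.59 (0.48 to 0.70) for Cebpb, 0.38 (0.14 to 0.60) for Cd44 and 0.22 (0.16 to 0.28) for Cebpd. In rd10-TMB the ratio was 2.69 for Timp1, 2.45 (2.16 to 2.73) for Serpina3n and 2.34 for A2m. For Serpina3n the intervals of the 2 rd10 libraries did not overlap, and neither did those for Cebpd, which was at 0.49 (0.40 to 0.57) in rd10-TMB. For the other members, Timp1 and A2m among them, the intervals overlapped.

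**Figure D4:**
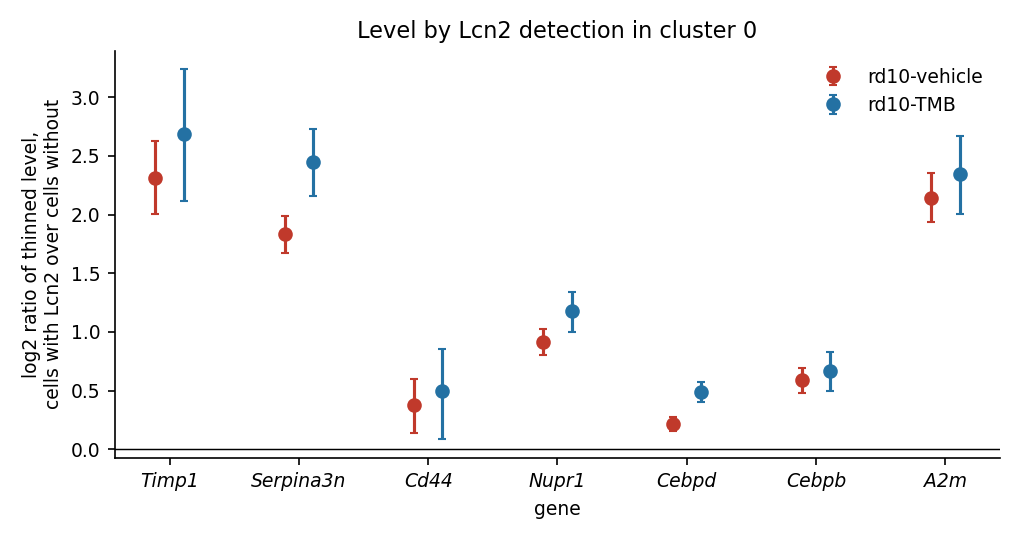
Log2 ratio of the level of each gene (x axis) in cluster 0 cells with Lcn2 over cells without it (y axis), in thinned cells of rd10-vehicle and rd10-TMB, with exact counting intervals. All points lie above 0, and the 3 inhibitors are highest, between 1.83 and 2.69.

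Among cells without Lcn2, rd10-TMB was below rd10-vehicle for each of the 7 members, with log2 ratios of -1.09 (-1.30 to -0.89) for Serpina3n, -0.99 (-1.43 to -0.59) for Timp1 and -0.52 (-0.77 to -0.28) for A2m, and -0.41, -0.37, -0.24 and -0.15 for Cd44, Nupr1, Cebpd and Cebpb, with intervals below 0. Among cells with Lcn2 the ratios were -0.61 (-1.13 to -0.17) for Timp1, -0.48 (-0.74 to -0.23) for Serpina3n and -0.32 (-0.63 to -0.02) for A2m. For the other 4 members the intervals spanned 0 in cells with Lcn2, from -0.29 (-0.72 to 0.11) for Cd44 to 0.03 (-0.07 to 0.13) for Cebpd. The split is by detection among 2000 UMIs, so cells without an Lcn2 UMI can include cells that express it. The inhibitors were lower in rd10-TMB on both sides of this split. Against WT, cells without Lcn2 in rd10-vehicle were higher by 5.01 for Serpina3n, 3.33 for A2m, 2.50 for Nupr1, 2.02 for Cebpb, 1.28 for Cebpd and 1.23 for Cd44, while Timp1 had 178 UMIs there and 0 in WT.

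Across the other clusters the members followed different patterns. In rd10-vehicle, Timp1 and Cd44 were highest in cluster 0. Timp1 was next at 24.9 CPM (12.9 to 43.4) in lens-like, 21.5 CPM (4.43 to 62.8) in retinal pigment epithelium (RPE)-like and 18.5 CPM (12.1 to 27.1) in astrocyte-like cells, which did not differ beyond their intervals. Cd44 was next at 124 CPM (107 to 144) in astrocyte-like cells. Serpina3n was higher in astrocyte-like cells (1754 CPM, 1686 to 1825) and RPE-like cells (1439 CPM, 1247 to 1652) than in cluster 0. A2m was highest in RPE-like cells (2391 CPM, 2142 to 2662), followed by astrocyte-like cells (593 CPM, 554 to 635) and cluster 0. In astrocyte-like cells the median Müller glia marker was itself at 36.6% of its level in cluster 0, and relative to that share Timp1 stood at 0.58, Nupr1 at 1.03, Cd44 at 1.63, A2m at 8.32 and Serpina3n at 14.8 times as much. These factors depend on the marker, since Rlbp1 alone was at 16.2%, below the 21.2% at which Timp1 stood. How much of the markers these cells make themselves was not tested, so 36.6% need not be RNA carried over from Müller glia. Nupr1 was highest in lens-like cells (7129 CPM, 6892 to 7371, 18 cells) and Cebpb in pericyte-like cells (1976 CPM, 1702 to 2283, 25 cells).

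**Figure D5:**
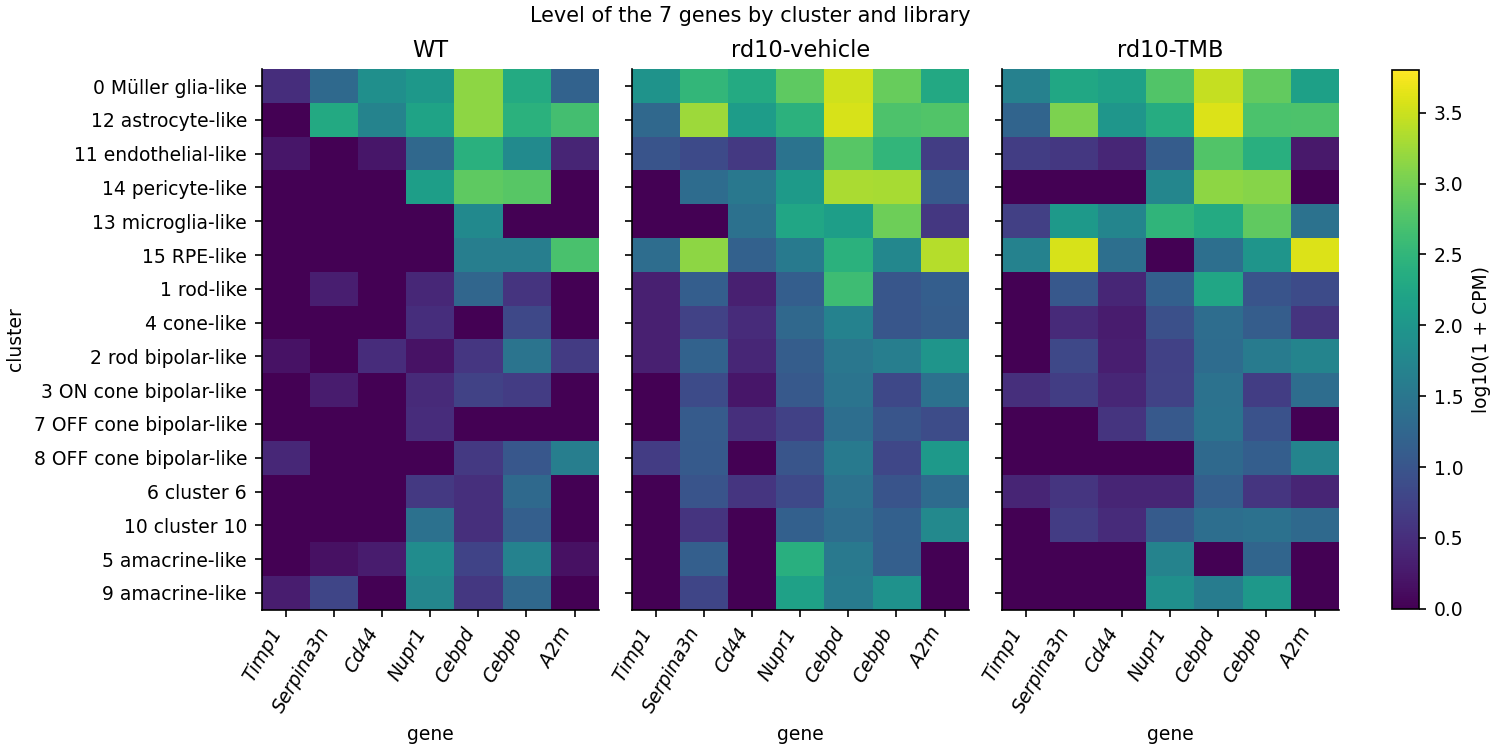
Level of the 7 genes (columns) by cluster (rows) in WT, rd10-vehicle and rd10-TMB, with colour as log10(1 + CPM). In rd10-vehicle, Serpina3n and A2m are higher in the astrocyte-like cluster than in cluster 0, Timp1 and Cd44 are highest in cluster 0, and Cebpd and Cebpb are also found in the pericyte-like and endothelial-like clusters.

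Astrocyte-like cells (cluster 12) numbered 20, 88 and 33 in WT, rd10-vehicle and rd10-TMB, too few for a ratio by the rule used here. Serpina3n was at 201 CPM (155 to 256) for WT, 1754 CPM for rd10-vehicle and 1131 CPM (1045 to 1222) for rd10-TMB, with a UMI in 30%, 96.6% and 97.0% of cells. Cebpd was at 1432, 3652 and 4010 CPM and Cebpb at 268, 549 and 527 CPM. A2m, in contrast, was at 457 CPM (386 to 537) in WT already, with 593 CPM and 552 CPM in the rd10 libraries. Timp1 was at 0 UMIs in WT and at 18.5 and 15.98 CPM in rd10. RPE-like cells were fewer still (13, 35 and 16), with A2m at 518, 2391 and 3976 CPM and Serpina3n at 0, 1439 and 3739 CPM.

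Vascular cells carried the C/EBP genes. In endothelial-like cells (137, 156 and 100 cells) Cebpd was at 260 CPM (234 to 288) for WT, 656 CPM (619 to 694) for rd10-vehicle and 588 CPM (547 to 632) for rd10-TMB, with a rd10-vehicle to WT log2 ratio of 1.33 (1.16 to 1.51). Cebpb was at 65.9 CPM (53.1 to 80.8), 319 CPM (293 to 346) and 253 CPM (226 to 282), with a ratio of 2.26 (1.95 to 2.61). The same direction was seen in pericyte-like cells (20, 25 and 22 cells), where Cebpd was at 710, 2083 and 1423 CPM and Cebpb at 649, 1976 and 1272 CPM. In microglia-like cells Cebpb was at 921 CPM (rd10-vehicle) and 733 CPM (rd10-TMB), with a UMI in 90.4% and 90% of cells, and the WT library held 6 such cells with 0 UMIs. All 25 Serpina3n UMIs of microglia-like cells in rd10-TMB came from 1 cell.

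Among the neurons, Cebpd was at its highest level in rod-like cells of rd10-vehicle. It was at 16.7 CPM (11.3 to 23.8) for WT, 416 CPM (374 to 461) for rd10-vehicle and 175 CPM (153 to 200) for rd10-TMB, over 1180, 556 and 746 cells. The log2 ratio was 4.60 (4.10 to 5.23) for rd10-vehicle to WT and -1.25 (-1.50 to -1.004) for rd10-TMB to rd10-vehicle, and no alternative moved these below 4.60 or above -1.21. Cebpd was in 1.10%, 25.2% and 16.5% of rod-like cells, or in 3.05%, 37.2% and 22.99% of the 197, 94 and 187 cells deep enough to thin. Free RNA from lysed Müller glia can reach any droplet, so the 10 Müller glia markers were taken as a yardstick: in rod-like cells of rd10-vehicle their median level was 1.70% of that in cluster 0, whereas Cebpd stood at 12.4%, 7.27 times as much. Cebpd was above WT in other neurons of rd10-vehicle too, at lower levels and nearer to that yardstick. In cone-like cells it had 0 UMIs in WT and was at 47.6 CPM in rd10-vehicle (122 UMIs, at least 22.6-fold higher), 1.66 times the marker level, and rd10-TMB stood to rd10-vehicle at -1.09 (-1.62 to -0.61) on the log2 scale. In rod bipolar-like and ON cone bipolar-like cells the log2 ratios of rd10-vehicle to WT were 3.12 (2.14 to 4.81) and 2.36 (1.24 to 4.28), on 6 and 5 WT UMIs, at 1.13 and 0.714 times the marker level.

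A2m in rod bipolar-like cells, which carry rod signals inward, was at 3.56 CPM (1.43 to 7.34) for WT, 94.0 CPM (82.7 to 107) for rd10-vehicle and 50.01 CPM (41.9 to 59.2) for rd10-TMB, over 405, 729 and 647 cells. The log2 ratio of rd10-vehicle to WT was 4.54 (3.66 to 6.05), and rd10-TMB stood to rd10-vehicle at -0.91 (-1.22 to -0.60). Cells with a UMI made up 1.23%, 21.3% and 13.4%, or 0.518%, 13.3% and 8.75% after thinning. In rd10-vehicle the A2m level was 48.2% of that in cluster 0, against 0.805% for the Müller glia markers, a factor of 59.9. This factor was 75.6 in WT, on 7 UMIs, and 62.9 in rd10-TMB, so it was not particular to rd10-vehicle. Free RNA from RPE-like or astrocyte-like cells, where A2m was higher than in cluster 0, was not tested as a source. In an OFF cone bipolar-like cluster (cluster 8) A2m was present in WT at 41.2 CPM (26.7 to 60.8) and was at 108 CPM (82.1 to 139) and 50.6 CPM (34.6 to 71.5) in rd10-vehicle and rd10-TMB, with a log2 ratio of 1.36 (0.69 to 2.12) for rd10-vehicle to WT. In ON cone bipolar-like cells A2m had 0 UMIs in WT and 36 in rd10-vehicle. In amacrine-like cells of cluster 9, Nupr1 was at 53.5, 149 and 78.0 CPM, with a rd10-vehicle to WT log2 ratio of 1.497 (0.76 to 2.16) over 295 and 62 cells. The same ratio of Nupr1 was 2.71 in cone-like and 3.63 in rod bipolar-like cells, on 3 and 1 WT UMIs. In cluster 10, which had ON cone bipolar and amacrine markers, it was -0.64 (-2.58 to 0.50), with an interval that spanned 0.

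Genes of the same pathways were taken from 10 lists, of which 73 genes had at least 50 UMIs in cluster 0. Of these, 29 were at least 2-fold above WT in rd10-vehicle, beside 4.68% of all genes, and 28 when genes with 0 WT UMIs were set to the bound that 3 counts allow. Some lists were built from genes known to be reactive, and their choice was made with results of these data known. Among pan-reactive glial genes, 6 of 9 were past 2-fold in rd10-vehicle and 5 of 9 were at 0.8 or less of the rd10-vehicle level in rd10-TMB, against 8.04% of all genes. Gfap was at 16.3, 339 and 223 CPM (log2 ratio of rd10-vehicle to WT 4.36) and Lcn2 at 39.8, 545 and 307 CPM (3.77). Cxcl10, a chemokine, had 0 UMIs in WT and was at 37.6 and 10.3 CPM in rd10, at least 41.6-fold above WT, while the filament gene Vim (0.38) and ceruloplasmin, Cp (0.12), differed little. Of the genes named for neuroinflammatory astrocytes (A1), 8 of 10 were past 2-fold (7 with bounds), including the complement inhibitor gene Serping1 (3.14), Fbln5 (3.03, on 3 WT UMIs) and Srgn (0 WT UMIs, at least 2.04-fold), and Amigo2 (-1.20) and Fkbp5 (-0.83) were lower. Of those named for ischaemic astrocytes (A2), 4 of 7 were, including Tm4sf1, Ptgs2 and Emp1, which had 0 WT UMIs and were at least 7.58-fold, 5.43-fold and 5.23-fold higher, with Ptx3 (0.01) and Sphk1 (-0.06) near 0. At 0.8 or less of their rd10-vehicle level in rd10-TMB were 2 of 10 A1 genes and 3 of 7 A2 genes, and 2 A1 genes were past the limit upwards.

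In the interleukin-6 family 5 of 14 genes were past 2-fold in rd10-vehicle, beside 4.68% of all genes. Socs3, the feedback inhibitor that Stat3 induces, was at 280 CPM for WT, 1181 CPM for rd10-vehicle and 1176 CPM for rd10-TMB, so the log2 ratio was 2.08 (1.98 to 2.17) against WT and -0.01 (-0.03 to 0.02) between the rd10 libraries. Stat3 itself was at 47.9, 109 and 83.4 CPM and Osmr, a receptor subunit for oncostatin M, at 28.3, 98.5 and 66.0 CPM. Lif (2.19) and Il6ra (0 WT UMIs, at least 3.19-fold) were higher as well, whereas the shared receptor Il6st (0.27), Lifr (-0.23) and Cntfr (-0.26) were near WT. Between the rd10 libraries the interval of Socs3 thus spanned 0, unlike that of any member. Of the NF-kB list 4 of 8 were past 2-fold, against the same 4.68%, with Il1r1 at 2.19, Relb at 1.44 and Nfkb2 at 1.15 against WT and Rela at 0.23 and Tnfaip3 at -0.03. Between the rd10 libraries, 4 of 14 interleukin-6 family genes and 5 of 8 NF-kB genes were at 0.8 or less of their rd10-vehicle level, against 8.04% of all genes.

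Each list of the closest relatives and partners of the members held 0 or 1 gene past 2-fold, beside 4.68% of all genes. These lists are too short to set their counts apart from that share. Of the other C/EBP genes 0 of 3 were past 2-fold, with Cebpa at 0.93 (0.35 to 1.70), Ddit3 at 0.30 and Cebpg at 0.14. Of the metalloproteinases and their inhibitors 1 of 11 was, Adamts4 at 1.46 (0.09 to 5.10) on 2 WT UMIs, while Timp3 was at 0.59, Timp2 at 0.42, Mmp14 at 0.08, Mmp15 at -0.33 and Mmp16 at -0.49. The paralogs Timp2 and Timp3 thus stayed below the limit that Timp1 passed. For partners of Cd44, 1 of 4 was, the galectin gene Lgals9 (1.71), and the cytoskeletal linkers Ezr (0.68), Msn (0.33) and Rdx (-0.05) were below the limit, with the ligand gene Spp1 at 0, 1 and 2 UMIs. The A2m receptor Lrp1 was at 144, 153 and 150 CPM (0.09) and its chaperone Lrpap1 at 267, 213 and 212 CPM (-0.32), with 0 of 2 past 2-fold. In the stress-response list 1 of 8 was, Atf3, at 103, 733 and 552 CPM (2.83), while Ppp1r15a (0.87), Asns (0.35), Atf4 (0.34), Sesn2 (-0.14) and Herpud1 (-0.90) were not. Between the rd10 libraries, 2 of 11 metalloproteinase and inhibitor genes and 1 of 8 stress-response genes were at 0.8 or less of their rd10-vehicle level, beside 8.04% of all genes, and 2 and 1 were past the same limit upwards. For the C/EBP genes, the partners of Cd44 and the genes around A2m these counts were 0 in both directions.

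Pattern likeness was taken as Pearson r of log2(CPM + 10) over 35 cluster and library sums of at least 50 cells, among 15798 genes. These sums share libraries and cell types, so r is a description. The closest genes were Cxcl5, Ifnlr1 and Sprr1a for Timp1 (0.957, 0.951 and 0.937), and Gfap, Fmod and Hsd17b2 for Serpina3n (0.972, 0.961 and 0.9501). Cd44 was nearest to Ly6g6d, Pdlim4 and C030005K06Rik (0.978, 0.971 and 0.962), and Nupr1 to 1700003F12Rik, Tsc22d4 and Cnp (0.899, 0.895 and 0.892). For Cebpd they were Ccn1, Myof and Pbxip1 (0.948, 0.933 and 0.9296) and for Cebpb Vwa5a, Slc39a1 and Atp6v0e (0.948, 0.942 and 0.941). A2m was the member with the lowest likeness to its nearest genes, Serpina3n, Sox2ot and Fmod (0.778, 0.778 and 0.725), and its r with the other members ran from 0.385 for Cebpb to 0.778 for Serpina3n.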

How the data were processed

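Retinas were dissociated with papain and 1 library per group was made with 10x v3 chemistry. The authors aligned reads to mm10 with Cell Ranger 6.0.1, combined libraries with Cumulus, removed doublets with Scrublet, kept cells with at least 500 genes in Seurat 3.2.2 and clustered after Harmony. Their test over cells, MAST, was not used. Values of the deposited matrix are natural logs of 1 plus the UMIs scaled to 10000 per cell. With the deposited total counts per cell, 32620606 of 32620606 values came back as whole UMIs within 0.001, and sums equalled the total count in 15242 of 15242 cells. Clusters are those deposited by the authors, and class names were rebuilt here from marker genes.

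UMIs were summed per cluster and library and scaled to CPM in Python 3.11.15 (numpy 2.4.6, scipy 1.17.1). Log2 ratios carried 1 added UMI per library and exact conditional intervals, sums exact Poisson intervals and shares Clopper-Pearson intervals, and a count of 0 was limited by 3 counts. Fold limits (2 against WT, and 0.8 of the rd10-vehicle level for rd10-TMB) applied to genes with at least 50 UMIs. Ratios outside cluster 0 needed 50 cells per library and 20 UMIs over the pair. The scripts were tested on simulated counts. Named were each member, Lcn2 and Gfap, the 3 highest and 2 lowest genes of each list, listed direct partners of the members and the 3 genes most like each member in pattern. The members, lists and comparisons were chosen with earlier results of these data known. Sequences and coordinates came from annotation of GRCm38 (mm10), and 11 listed genes were not in the matrix.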

Additional observations from a re-analysis of the deposited data

How the results depend on the processing

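No member ratio in cluster 0 changed direction over 203 alternative values, of which 161 stayed within their counting interval and 42 moved outside it. Outside cluster 0, 189 of 192 stayed. The median log2 ratio of rd10-vehicle to WT (2.79) was 2.96 without the 5% of cells with the most UMIs, and that of rd10-TMB to WT (2.45) was 2.26 after thinning to 2000 UMIs. The median of rd10-TMB to rd10-vehicle (-0.44) was -0.53 as a mean over cells and -0.55 without the 5% of cells with the most UMIs. The share of cells with at least 3 members depended on depth by construction: at 1000 UMIs, 4000 UMIs and without thinning it was 1.90%, 16.03% and 29.1% in WT, 34.7%, 83.6% and 90.4% in rd10-vehicle and 24.0%, 71.4% and 83.8% in rd10-TMB. Pairs above expectation in WT (10) numbered 4 at 1000 UMIs, 17 without thinning and 6 in the cells that held Xist but no Y-linked UMI. Only pairs with an expectation of at least 1 cell are counted, 14 in WT at 2000 UMIs. How many pairs qualify can change with depth and cell number, so these counts are not directly comparable. Those of rd10-vehicle (17) and rd10-TMB (19) ranged from 15 to 21 and from 18 to 21, with 21 in each without thinning. Listed genes past the limit (29 of 73) numbered 37 at 1.5-fold, 34 of 81 at a minimum of 20 UMIs and 36 of 95 with none. No paired analysis was possible because each group had 1 library. Depth limited WT most, where Timp1 rested on 7 UMIs and A2m on 49.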
